A study of Rattus norvegicus with 12 samples.

Results

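The 7 genes described here encode enzymes that oxidise or conjugate foreign compounds: the cytochromes P450 Cyp3a9 and Cyp1b1, the microsomal epoxide hydrolase Ephx1, the phenol sulfotransferase Sult1a1, and the glutathione S-transferases Gstm1, Gstp1 and Gstt1. They were taken by gene symbol from the platform's annotation, which gave 1 probe set for each, 7 of the 31099 on the array and 7 of 14218 named genes. They were chosen by their fold changes of EGF over control at 4 h and 12 h, already known from these arrays, so their signals and fold changes are given as a description, with no test. All 7 passed the filter on dim probe sets, a mean over all 12 arrays of at least 215. Cyp3a9 passed it through its EGF arrays, since its controls averaged 147 at 4 h and 106 at 12 h, and the EGF arrays of Gstt1 at 12 h averaged 196.

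The cells were rat astrocytes grown in primary culture from the optic nerve head, the place where retinal axons exit the globe. One group received epidermal growth factor (EGF) during 4 h and another during 12 h, and each had an untreated control group of its own, made of sister cultures. With 3 arrays in each of the 4 groups there were 12 arrays, and the labels name no difference between groups other than EGF and time. The labels state neither strain, age nor EGF dose, nor whether the 3 arrays of a group came from separate cultures, and if they did not, the p-values measure technical spread only.

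Enzymes of this kind work in steps. Cytochromes P450 insert oxygen into a compound, epoxide hydrolase opens the reactive epoxides that can result, and transferases then attach sulfate, glutathione or other groups that make the product soluble and ready for export. In the nervous system astrocytes and barrier cells carry much of this capacity, and several of the genes are known targets of the aryl hydrocarbon receptor, a sensor of aromatic compounds, or of the antioxidant factor Nrf2 (gene Nfe2l2).

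The cultures carried astrocyte and fibroblast transcripts. Of 11 astrocyte markers on the array, 6 passed the dim filter, and the gap junction gene Gja1 (51744 to 85279.8 signal units over the 12 arrays) and Vim (60217.4 to 116059) were bright. The defining markers Gfap (36.2 to 347.4) and Aqp4 (14.9 to 108.2) were dim, as were Slc1a2, Aldh1l1 and Fabp7. At 4 h 0 of the 6 were higher and 0 lower, and at 12 h 0 were higher and 2 lower: Glul, with 2679.2 to 3522.2 in EGF arrays and 6551 to 7606.3 in control arrays, and Aldoc, with 19.9 to 52.8 in EGF arrays and 2234.4 to 2920.7 in control arrays. Aldoc passed the dim filter only through its 12 h controls, since at 4 h it averaged 85.6 in EGF arrays and 160 in control arrays. Nothing is therefore read from its call. The summed astrocyte signal overlapped at 12 h, at 138472 to 199354 in EGF arrays and 147579 to 153894 in control arrays. That sum was mostly Gja1 and Vim, both of which overlapped at 12 h, so it says little of the dimmer markers. Of 10 fibroblast and meningeal markers 9 passed, and their summed signal was 124498 to 192961 in EGF arrays and 251161 to 283808 in control arrays at 12 h, with 0 members higher and 6 lower of 9. At 4 h it was 235569 to 255020 in EGF arrays and 275099 to 312728 in control arrays, with 1 higher and 3 lower of 9. Of all tested genes 16.5% were higher and 24.2% lower at 12 h, and 12.8% higher and 19.6% lower at 4 h. The marker counts stand beside these shares. The summed oligodendrocyte signal (4 of 8 markers above the filter) was 4564.9 to 5778.9 in EGF arrays and 9125.9 to 9665 in control arrays at 12 h, and 4207.3 to 4954.3 in EGF arrays and 6501.6 to 7554.7 in control arrays at 4 h. It was mostly Cnp and Mbp, the 2 markers that were lower at each time. At 4 h 0 were higher, and at 12 h 1 was, Cspg4, with 277.2 to 459.2 in EGF arrays and 23.5 to 147.9 in control arrays. The endothelial sum (1 of 5) was 1148.2 to 1545.4 in EGF arrays and 2378.1 to 3304.4 in control arrays at 12 h, and was lower in EGF arrays at 4 h too. It was mostly Tek, with 846.8 to 1220.7 in EGF arrays and 2023.7 to 2769.5 in control arrays at 12 h. The dim Pecam1, Kdr, Cldn5 and Tie1 overlapped at 12 h. The microglial sum (3 of 9) was 1604.9 to 2466.8 in EGF arrays and 904.8 to 1107.7 in control arrays at 12 h, where Cd68 had 841.1 to 1054.6 in EGF arrays and 13.8 to 132.7 in control arrays. Cd68 was the 1 marker called higher there, and Aif1 (log2 fold change -0.05 ± 0.36) and Csf1r (0.42 ± 0.39) did not pass. Cd68 passed the dim filter only through its 12 h EGF arrays, since at 4 h it had at most 141.9 in EGF and 51.6 in control arrays. Nothing is therefore read from its call. At 4 h the microglial sum was 884.8 to 1187.3 in EGF arrays and 1300.4 to 1476.7 in control arrays. The Schwann cell sum (3 of 4) was higher in EGF arrays at both times, but at 12 h 1 marker was higher and 2 lower. Gap43 was the higher one, with 6714.3 to 9273.5 in EGF arrays and 252.2 to 320.8 in control arrays. Pmp22 (5827.5 to 7498.9 and 7911.8 to 9995.3) and Prx (480.1 to 637.7 and 819.9 to 1040.6) were lower. Of 7 neuronal markers 0 passed the filter. The part that these shifts play in the enzyme signals was not tested, and in bulk RNA fewer cells of a type and less RNA per cell cannot be told apart.

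The 12 arrays also differed technically. At 4 h, the arrays numbered 3 had mean hybridisation controls of 6185 (EGF) and 7254 (control), against at most 108.1 on all others. The actin 3' to 5' ratio, a measure of how far labelled RNA reaches from its 3' end, was 1.256 to 1.444 on the EGF arrays and 1.204 to 1.612 on the controls of 4 h. It was 18.1, 20.5 and 1.24 on the EGF arrays of 12 h, and 11.1 to 21.7 on the controls of 12 h.

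After 12 h, EGF-treated cultures had 44.6-fold less Sult1a1 signal, 7.27-fold less Gstt1 and 3.03-fold less Ephx1 than control cultures, by ratios of group means. In the same arrays Cyp3a9 was 54.2-fold higher and Gstp1 5.20-fold higher. Cyp1b1 was 1.33-fold higher and Gstm1 1.11-fold lower. After 4 h Cyp3a9 was 5.23-fold higher, Sult1a1 1.89-fold lower and Ephx1 1.73-fold lower, and the other 4 enzymes lay within 1.30-fold of control. Over the 18625 probe sets in the fit, the log2 fold change at 4 h had a median of -0.15, a general shift against which small decreases at 4 h stand. Among the 10261 tested genes, Sult1a1 had the 3rd lowest and Cyp3a9 the 4th highest log2 fold change at 12 h.

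**Figure D1:**
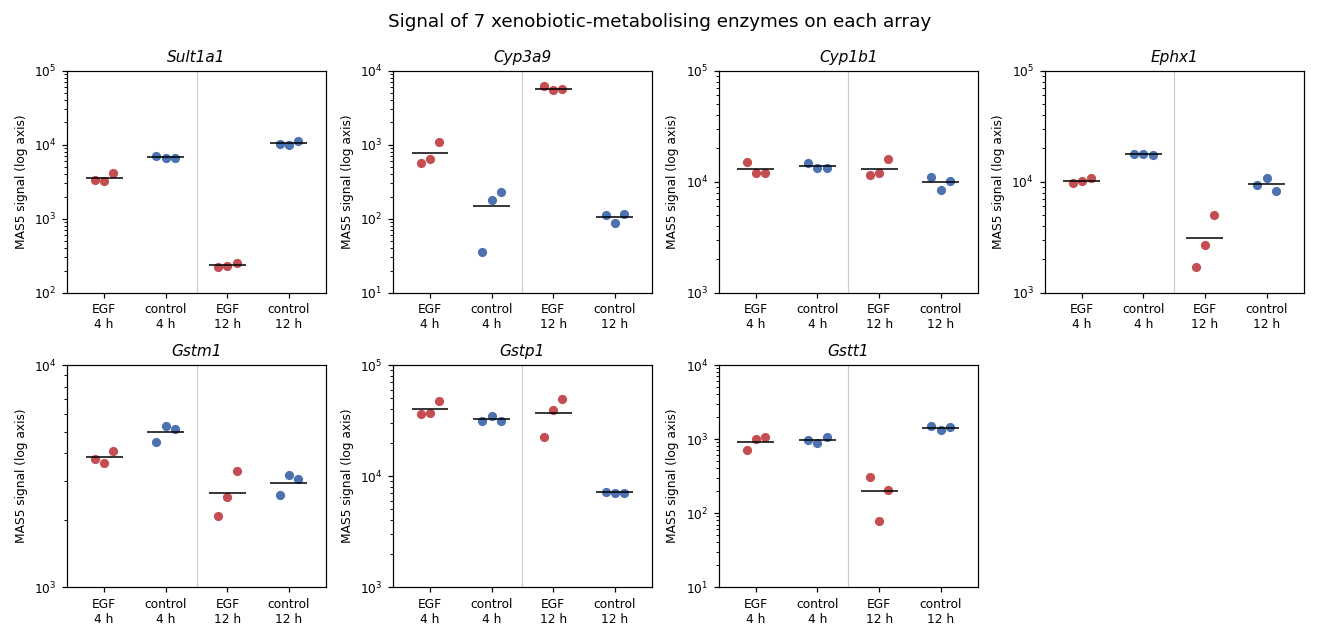
MAS5 signal of each of the 7 enzymes on every array (points, log axis) with the mean of each group (line), for EGF and control cultures at 4 h and 12 h. Sult1a1 lies at 222 to 251.9 in the EGF arrays of 12 h and at 9914.4 to 11350.8 in their controls, while Cyp3a9 lies at 5414.3 to 6129.9 in those EGF arrays and at 87.8 to 116.9 in those controls.

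In the fit over all probe sets (limma, adjusted p under 0.05), 3 of the 7 enzymes were called at 4 h, 1 higher and 2 lower, where 32.4% of all tested genes were called, 12.8% higher and 19.6% lower. At 12 h 5 of 7 were called, 2 higher and 3 lower, where 40.8% of all tested genes were, 16.5% higher and 24.2% lower. The EGF and control arrays did not overlap for 5 of 7 enzymes at 4 h, 2 with all EGF arrays higher and 3 lower, against 52.7% of all tested genes (19.4% higher and 33.3% lower). At 12 h they did not overlap for 6 of 7, 3 higher and 3 lower, against 52.6% of all tested genes (20.9% higher and 31.8% lower). Since these contrasts chose the enzymes, nothing is read from these counts.

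The sequence upstream of 4 of the genes is shown because it carries the letters of elements long studied in this family. Each is the 250 bases before a transcript start in RefSeq (build GRCr8), 5′ to 3′ on the gene's strand, and 6 of 7 genes, all but Gstt1, matched the table by symbol. Capitals mark matches, on either strand, to TGACTCA (the AP-1 motif), GCGTG (the core bound by the aryl hydrocarbon receptor) or TGACNNNGC (the antioxidant response element). The AP-1 and antioxidant motifs share letters and overlap where both match.
Cyp3a9 (GRCr8, chr12:21960161-21960410, minus strand): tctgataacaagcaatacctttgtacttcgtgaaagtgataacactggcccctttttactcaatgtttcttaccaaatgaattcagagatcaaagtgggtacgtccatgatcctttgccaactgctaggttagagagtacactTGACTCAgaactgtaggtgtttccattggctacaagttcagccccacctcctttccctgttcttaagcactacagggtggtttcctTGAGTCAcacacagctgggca
Gstp1 (GRCr8, chr1:210769706-210769955, minus strand): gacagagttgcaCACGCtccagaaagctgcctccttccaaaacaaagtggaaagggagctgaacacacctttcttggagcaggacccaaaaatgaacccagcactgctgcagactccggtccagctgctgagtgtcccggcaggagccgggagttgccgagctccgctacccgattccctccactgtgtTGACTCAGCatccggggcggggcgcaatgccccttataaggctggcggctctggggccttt
Ephx1 (GRCr8, chr13:95263118-95263367, minus strand): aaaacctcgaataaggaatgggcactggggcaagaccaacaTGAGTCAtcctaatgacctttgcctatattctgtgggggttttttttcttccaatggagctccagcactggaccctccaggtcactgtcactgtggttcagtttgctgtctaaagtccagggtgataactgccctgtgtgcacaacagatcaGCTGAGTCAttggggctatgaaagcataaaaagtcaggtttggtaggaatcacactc
Cyp1b1 (GRCr8, chr6:21094315-21094564, plus strand): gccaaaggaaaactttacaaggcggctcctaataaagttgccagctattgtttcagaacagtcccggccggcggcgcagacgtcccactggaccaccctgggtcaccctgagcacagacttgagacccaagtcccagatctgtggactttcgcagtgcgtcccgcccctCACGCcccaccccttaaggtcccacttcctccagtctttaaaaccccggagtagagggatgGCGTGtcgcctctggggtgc
The Cyp3a9 window held 2 AP-1 matches, at 107 to 101 and 21 to 15 bases before the start. The Gstp1 window held 1 at 61 to 55 bases, which is part of a longer antioxidant element match that ends at base 53, and 1 receptor core at 238 to 234 bases. Ephx1 has a pair of starts in the table. The one shown held 2 AP-1 matches, the nearer within an antioxidant element match, and the other none of the motifs. The Cyp1b1 window held 2 receptor cores, and the Sult1a1 and Gstm1 windows none of the 3 motifs. Of 33469 windows of this length in RefSeq, 4.05% held TGACTCA, and 0.117% held it at least 2 times. GCGTG was in 25.9%, and at least 2 times in 8.12%, and TGACNNNGC was in 10.1%. The printed windows were picked for their matches, so these shares do not measure how unusual they are. These matches are a description of letters in these windows, and AP-1 matches stood both before genes with higher signal in EGF cultures (Cyp3a9, Gstp1) and before one with lower signal (Ephx1).

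Cyp3a9 belongs to the P450 subfamily that oxidises steroids and many drugs in liver. After 4 h its signal was 559.1, 650.4 and 1101.6 in EGF arrays and 35.3, 177.1 and 229.5 in control arrays. All EGF arrays lay above all controls, and control replicate 1 lay below 96.8, the 25th percentile of all signals. The log2 fold change, on the scale of log2(signal + 24.4) used throughout, was 2.39 ± 0.43 (SE), and without control replicate 1 it was 1.75. After 12 h its signal was 6129.9, 5414.3 and 5644.7 in EGF arrays and 112.2, 87.8 and 116.9 in control arrays. The 3 EGF arrays were close to each other and far above the controls, with a log2 fold change of 5.47 ± 0.43, or 4.85 with the larger offset of 96.8.

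Cyp1b1, a P450 of steroid, retinoid and aromatic compounds that is linked to congenital glaucoma in people, hardly differed by comparison. At 4 h its signal was 15105.1, 11947.3 and 11968.7 in EGF arrays and 14792.8, 13288 and 13339 in control arrays, which overlap (log2 fold change -0.09 ± 0.16). Its signal at 12 h was 11598.2, 11915.5 and 15972.4 in EGF arrays and 11143.7, 8378.2 and 10072.2 in control arrays. There the lowest EGF array lay just above the highest control, and the log2 fold change was 0.41 ± 0.16. It was 0.26 without EGF replicate 3, the array with the low actin ratio.

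Ephx1, which adds water to epoxides of drugs and pollutants, was lower at both times. At 4 h its signal was 9680, 10260 and 10767.1 in EGF arrays and 17704.6, 17955.9 and 17350 in control arrays, a log2 fold change of -0.79 ± 0.27. The arrays within each group differed little and the groups stood well apart. At 12 h it was 1701.7, 2694.3 and 4979.9 in EGF arrays and 9282.1, 10839.4 and 8297.7 in control arrays, a log2 fold change of -1.72 ± 0.27. The EGF arrays were spread widely, and the highest was replicate 3. Without replicate 3 the log2 fold change was -2.12. The probe set's name ends in _a_at, which on this platform means that it can detect several transcripts of the gene.

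Sult1a1 transfers sulfate to phenols, among them drugs, catechols and plant compounds. At 4 h its signal was 3329.7, 3241.2 and 4136.3 in EGF arrays and 6998.8, 6644.2 and 6559.5 in control arrays, a log2 fold change of -0.92 ± 0.13. The groups did not overlap. Its 12 h signal was 222, 231.8 and 251.9 in EGF arrays and 10184.2, 9914.4 and 11350.8 in control arrays, a log2 fold change of -5.34 ± 0.13. The 3 EGF arrays lay close together, a little above the dim limit, and replicate 3, with the low actin ratio, was like the others. Without that array the log2 fold change was -5.38. The difference between the log2 effects at 12 h and 4 h was -4.42 ± 0.19.

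The 3 glutathione S-transferases, which join glutathione to reactive compounds, went different ways at 12 h. Gstp1, of the pi class, had signals of 36329.9, 37047.3 and 47316.2 in EGF arrays and 31043.5, 34673.1 and 31227.2 in control arrays at 4 h, a log2 fold change of 0.31 ± 0.22. At 12 h its signals were 22390.8, 39289.9 and 49480.6 in EGF arrays and 7181.8, 7102.5 and 7094.9 in control arrays (2.30 ± 0.22). The 12 h controls were nearly equal, the EGF arrays were spread widely, and the groups did not overlap. Without EGF replicate 1, the lowest, the log2 fold change was 2.63, and without replicate 3, the highest, it was 2.05. The EGF signals were thus of similar size at both times, and the control signals were what differed: 7126 ± 48.1 at 12 h and 32315 ± 2045 at 4 h (SD, n = 3 each).

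Gstt1, of the theta class, had signals of 714.3, 988.9 and 1063.3 in EGF arrays and 974.9, 882.2 and 1053.3 in control arrays at 4 h, which overlap (-0.09 ± 0.33). After 12 h of EGF it had 308.6, 78.5 and 202 in EGF arrays and 1516.6, 1329.4 and 1434.6 in control arrays, a log2 fold change of -2.87 ± 0.33. Every EGF array was far below the controls, and replicate 2 was under the 25th percentile of all signals. Without replicate 2 the log2 fold change was -2.40. Gstm1, of the mu class, had signals of 3768.5, 3615.7 and 4113.6 in EGF arrays and 4508.9, 5291.3 and 5144.9 in control arrays at 4 h (-0.37 ± 0.16). The groups did not overlap at 4 h but did at 12 h, where the signals were 2096.5, 2547.1 and 3316.9 in EGF arrays and 2587, 3194.8 and 3057.3 in control arrays (-0.17 ± 0.16). Close relatives of these enzymes have similar sequences, and the specificity of each probe set among them was not tested.

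**Figure D2:**
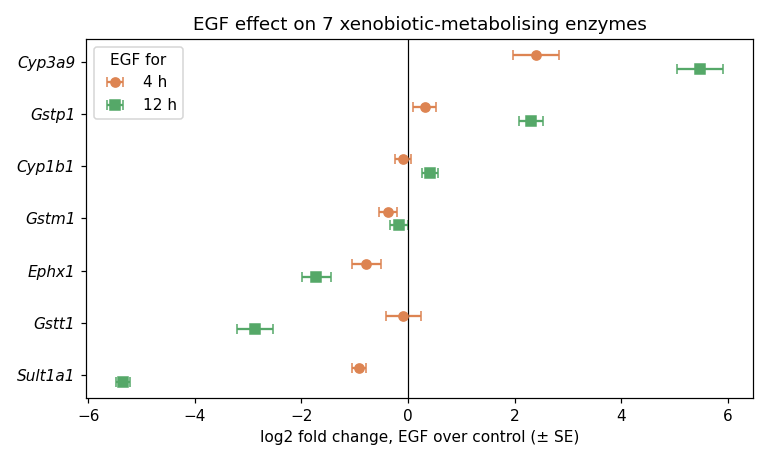
Log2 fold change of EGF over control (points, ± SE pooled over the 4 groups of 3 arrays) for the 7 enzymes at 4 h (circles) and 12 h (squares). The values at 12 h run from -5.34 for Sult1a1 to 5.47 for Cyp3a9, and those at 4 h from -0.92 for Sult1a1 to 2.39 for Cyp3a9.

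The untreated cultures of the 2 experiments were not alike in these enzymes. As log2 differences of control at 12 h over control at 4 h, Gstp1 was -2.18 ± 0.22, Ephx1 -0.91 ± 0.27, Gstm1 -0.76 ± 0.16 and Cyp1b1 -0.49 ± 0.16. Sult1a1 was 0.63 ± 0.13, Gstt1 0.55 ± 0.33 and Cyp3a9 -0.17 ± 0.43. These arrays also chose the enzymes, so the differences carry no test. Of all tested genes 45.1% were called between the controls, 28.4% higher and 16.6% lower at 12 h, and the 3 arrays of each group did not overlap for 62.8%, 39.4% higher and 23.4% lower. The actin 3' to 5' ratio was 11.1 to 21.7 in the later controls and at most 1.61 in the earlier ones, and time, experiment and set of arrays cannot be told apart here.

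For each enzyme, the tested genes whose log2 signal followed it most closely over the 12 arrays were found by Pearson's r, given without a p since the arrays fall into 4 groups. Sult1a1 was followed by Cldn11 (r = 0.989), a tight junction gene, and by Selenbp1 (r = 0.983), which encodes a selenium-binding protein. Cldn11 had 1006.8 to 1297.5 signal units in EGF arrays and 44080.1 to 47854.2 in control arrays at 12 h. Cyp3a9 was followed by the DNA repair gene Ercc1 (r = 0.978) and the chemokine gene Cxcl10 (r = 0.976). Cxcl10 had 5343.6 to 7695.1 units in EGF arrays and 324.7 to 570.3 in control arrays at 12 h. Ephx1 was followed by Tmem205 (r = 0.988) and the semaphorin gene Sema5a (r = 0.979). Gstp1 was followed by Manf (r = 0.986), which encodes a factor of the endoplasmic reticulum, and by the nucleoside diphosphate kinase gene Nme2 (r = 0.982). Gstt1 was followed by Tc2n (r = 0.979) and Klhl29 (r = 0.978). Gstm1 was followed by the stress gene Nupr1 (r = 0.970) and by Oat (r = 0.968), which encodes ornithine aminotransferase. Cyp1b1 was followed less closely by Cdk16 (r = 0.899) and Pmpca (r = 0.896).

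The remaining genes of xenobiotic metabolism were taken from 9 lists by function, 206 genes in all. Of these 167 were on the array with a name of their own, 85 passed the dim filter and were tested, and 82 were too dim. At 4 h 12 of 85 were higher, 18 lower and 55 passed in neither direction, with a median log2 fold change of -0.30. That is 35.3% called, against 32.4% of all tested genes (12.8% higher and 19.6% lower), whose median was -0.17. At 12 h 16 were higher, 32 lower and 37 neither, with a median of -0.29. That is 56.5% called, against 40.8% of all tested genes (16.5% higher and 24.2% lower), whose median was -0.09. The counts of each list below are to be read beside these shares. Besides genes named by the smallest p of a list, the accounts below name other genes that passed, chosen after their values were seen. With each array centred on its median, the split at 4 h was 16 higher and 13 lower. With sets of arrays blocked in the fit, 48 of these genes were called at 4 h, 32 of them lower.

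Of the other cytochromes P450 of families 1 to 3, 24 of 30 on the array were too dim to test, among them Cyp1a1 and Cyp1a2, the classic targets of the aryl hydrocarbon receptor. Of the 6 tested, 0 were higher and 0 lower at 4 h, and 0 were higher and 2 lower at 12 h (16.5% and 24.2% of all tested genes). Cyp2c11, a male-biased steroid hydroxylase of rat liver, fell at 12 h (-2.70 ± 0.40, limma adjusted p = 1.76e-04), with 129 ± 93.2 in EGF cultures and 838 ± 77.0 in control cultures (SD, n = 3 each). Cyp2u1 fell as well (-1.30 ± 0.30, adjusted p = 0.00412).

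Of the 13 other enzymes of oxidation and hydrolysis tested, 1 was higher and 7 lower at 4 h, and 1 was higher and 8 lower at 12 h. Por, the reductase that passes electrons to P450 enzymes, rose at 4 h (1.31 ± 0.15, limma adjusted p = 3.01e-05) and did not pass at 12 h (0.21 ± 0.15). Its second, dimmer probe set passed at neither time (0.88 ± 0.51 and 1.05 ± 0.51). The flavin monooxygenase gene Fmo4 fell at 4 h (-2.39 ± 0.22, adjusted p = 3.91e-06) and at 12 h (-1.70 ± 0.22), where its second probe set did not pass (0.08 ± 0.40). Xdh, which makes uric acid, fell at both times (-0.85 ± 0.17 and -1.48 ± 0.17). Aldehyde oxidase Aox1 fell at 12 h (-3.20 ± 0.36, adjusted p = 1.44e-05), and so did the soluble epoxide hydrolase Ephx2 (-2.15 ± 0.20, adjusted p = 2.84e-06). Ephx2 had also fallen at 4 h (-0.72 ± 0.20, adjusted p = 0.0165), a call lost in 3 of 23 alternatives, without EGF replicate 1 or 2 or control replicate 3 of 4 h (adjusted p = 0.0693, 0.0590 and 0.0555). The cytochrome b5 gene Cyb5a (-0.53 ± 0.13 and -0.60 ± 0.13), its reductase Cyb5r3 (-0.34 ± 0.11 and -0.70 ± 0.11) and the paraoxonase gene Pon2 (-0.43 ± 0.11 and -0.59 ± 0.11) were lower at both times. Fmo1 was lower at 4 h (-0.95 ± 0.32) and Fmo5 at 12 h (-0.91 ± 0.25), and the outer mitochondrial form of cytochrome b5, Cyb5b, was higher at 12 h (0.62 ± 0.17).

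Of the 5 sulfation genes tested besides Sult1a1, 0 were higher and 2 lower at 4 h, and 0 were higher and 1 lower at 12 h. Of 17 on the array 12 were dim, among them the estrogen sulfotransferase Sult1e1. Papss1 and Papss2, which make the sulfate donor, fell at 4 h (-0.67 ± 0.17, limma adjusted p = 0.00953, and -0.87 ± 0.21, adjusted p = 0.00697). Papss2 lost its call without both arrays numbered 3 at 4 h (adjusted p = 0.0684). At 12 h neither passed by its brighter probe set (-0.41 ± 0.17 and 0.11 ± 0.21), while the dimmer one of Papss2 was higher (1.11 ± 0.23). Slc35b3, which carries the donor into the Golgi, fell at 12 h (-0.71 ± 0.24, adjusted p = 0.0333). That call was lost in 8 of 23 alternatives, which include leaving out any single 12 h array other than EGF replicate 1 (adjusted p from 0.0531 to 0.0943).

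Other glutathione S-transferases were mostly lower at 12 h. Of 14 tested, 0 were higher and 2 lower at 4 h, with a median log2 fold change of -0.34, and 2 were higher and 8 lower at 12 h, with a median of -1.08. Gsta1, of the alpha class, had 14563.5, 15437.7 and 13980.3 units in EGF arrays and 39566.8, 38927.1 and 40891.7 in control arrays at 12 h (-1.44 ± 0.14, limma adjusted p = 2.99e-06). Its groups did not overlap at 12 h. Gstz1 (-1.53 ± 0.20), Gstm5 (-1.04 ± 0.14) and Gstt2 (-1.11 ± 0.18) fell at 12 h too, and the last pair had fallen at 4 h (-0.44 ± 0.14 and -0.98 ± 0.18). The 4 h call of Gstm5 was lost in 7 of 23 alternatives, among them median centring (adjusted p = 0.153) and leaving out any EGF array of 4 h or control replicate 2 (adjusted p from 0.0623 to 0.119). The membrane-bound Mgst2 rose at 12 h, with 14745.1, 13084.7 and 17699.7 units in EGF arrays and 5698.1, 4868.7 and 5703.4 in control arrays (1.47 ± 0.13, adjusted p = 2.32e-06). Gstcd was the other gene to rise (0.78 ± 0.21), and Gstm7 (-1.60 ± 0.22), Gstk1 (-1.35 ± 0.29) and Mgst1 (-1.35 ± 0.38) were lower at 12 h. Gsta4 was called lower as well, with 10.3, 65.3 and 25.3 units in EGF arrays and 505.9, 362.6 and 571.4 in control arrays. Its EGF arrays lay under the 25th percentile of all signals (96.8) and it passed the dim filter only through its 12 h controls, so no size is given.

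Genes that make glutathione moved in both directions. Of 12 tested, 3 were higher and 3 lower at 4 h, and 5 were higher and 4 lower at 12 h. Gss, glutathione synthetase, rose at both times. At 12 h it had 10447.2, 13503 and 12395.6 units in EGF arrays and 1750.8, 1717.9 and 1604.6 in control arrays (2.82 ± 0.14, limma adjusted p = 8.74e-09), and at 4 h its log2 fold change was 0.90 ± 0.14 (adjusted p = 3.10e-04). Slc7a11, the cystine carrier that supplies the pathway, was above control by 1.47 ± 0.23 at 4 h and 2.58 ± 0.23 at 12 h on the log2 scale (adjusted p = 3.41e-04 and 1.63e-06). Its mean signal in EGF cultures was 2571 at 4 h and 1446 at 12 h, and in control cultures 909 and 220. Gclc, the catalytic subunit of the rate-limiting ligase, fell at 4 h, with 6927.7, 5749.5 and 6918.6 units in EGF arrays and 18243.1, 17733 and 18866.8 in control arrays (-1.49 ± 0.11, adjusted p = 5.67e-07). It was lower at 12 h as well (-1.01 ± 0.11, adjusted p = 1.21e-05), where its dimmer probe set did not pass (-0.27 ± 0.36). Ggct, an enzyme of glutathione breakdown, was higher at both times (0.68 ± 0.19 and 0.93 ± 0.19), and Chac2, another, was lower (-0.71 ± 0.22 and -1.15 ± 0.22). Chac1 was lower at 4 h (-1.05 ± 0.17). At 12 h glutathione reductase, Gsr, was higher (1.35 ± 0.44), as was Ggt7 (0.70 ± 0.25), while 5-oxoprolinase, Oplah (-2.30 ± 0.31), and Slc3a2, the partner chain of Slc7a11 (-0.77 ± 0.13), were lower.

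**Figure D3:**
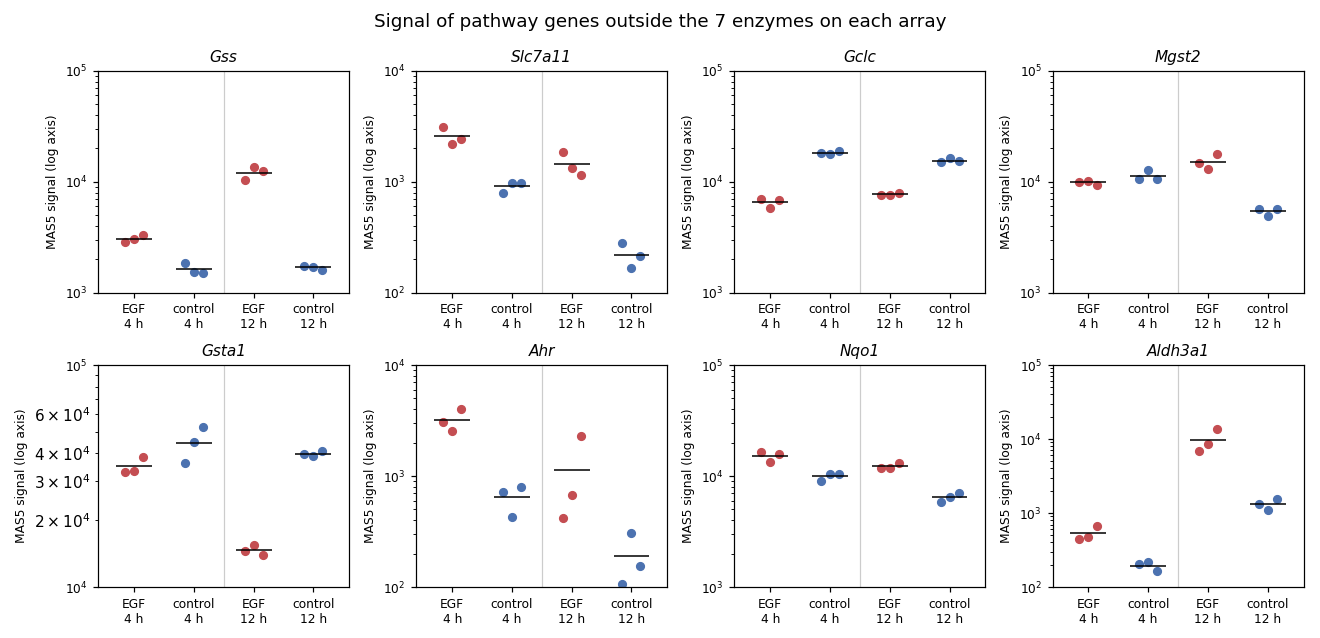
MAS5 signal on every array (points, log axis) with group means (lines) for 8 pathway genes outside the 7 enzymes. Gss, Slc7a11, Ahr, Nqo1 and Aldh3a1 are higher in EGF than in control arrays at both times and Gclc lower, while Mgst2 and Gsta1 stand apart at 12 h.

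Of 8 genes of other conjugation tested, 1 was higher and 2 lower at each time, and all 7 glucuronosyltransferases on the array with a name of their own were dim. Ugdh, which makes the donor for glucuronidation, rose at 4 h (1.12 ± 0.15, limma adjusted p = 1.09e-04) and did not pass at 12 h (0.16 ± 0.15). The N-acetyltransferase Nat1 fell at 4 h (-1.37 ± 0.20, adjusted p = 2.42e-04) and at 12 h (-0.61 ± 0.20, adjusted p = 0.0324), the later call lost in 8 of 23 alternatives, which include leaving out any 12 h control or EGF replicate 1 (adjusted p from 0.0648 to 0.112). Its dimmer probe set was lower at both times (-1.51 ± 0.23 and -1.26 ± 0.23). Nnmt, a methyltransferase of nicotinamide, fell at 4 h (-1.09 ± 0.20). At 12 h the thiopurine methyltransferase Tpmt rose (1.06 ± 0.22, adjusted p = 0.00233) and the arsenic methyltransferase As3mt fell (-1.37 ± 0.27, adjusted p = 0.00123).

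Of the 10 transporters tested, 1 was higher and 0 lower at 4 h, and 0 were higher and 2 lower at 12 h. Another 13 of 23 were dim. Slco2a1, the prostaglandin transporter, rose at 4 h, with 5698.8, 6448.5 and 5442.2 units in EGF arrays and 826.8, 633.7 and 722.1 in control arrays (2.97 ± 0.31, limma adjusted p = 1.36e-05). At 12 h it had 51.5, 23 and 74 units in EGF arrays and 28.9, 33.7 and 66.3 in control arrays, all under the 25th percentile of all signals (96.8). The carnitine transporter gene Slc22a5 (-1.42 ± 0.24, adjusted p = 4.63e-04) and Slco1a4 (-0.94 ± 0.29, adjusted p = 0.0203) fell at 12 h, the call of Slco1a4 being lost in 2 of 22 alternatives, without control replicate 1 or 3 of 12 h (adjusted p = 0.0730 and 0.0616).

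Of 13 xenobiotic receptors and partners tested, 3 were higher and 2 lower at 4 h, and 4 were higher and 4 lower at 12 h. Ahr, the aryl hydrocarbon receptor itself, rose at 4 h, with 3052.3, 2526.9 and 4033.5 units in EGF arrays and 715.4, 425.5 and 788.6 in control arrays (2.29 ± 0.50, limma adjusted p = 0.00412). At 12 h it had 419, 675.5 and 2281 units in EGF arrays and 107.1, 307.8 and 156.2 in control arrays (2.17 ± 0.50, adjusted p = 0.00434). The 12 h EGF arrays were widely spread and replicate 3 was the highest. Without it the 12 h value was 1.48, while a second, dim probe set of Ahr passed at neither time (0.04 ± 0.59 and 0.54 ± 0.59). Maff, a small Maf partner of Nrf2, rose at both times (1.71 ± 0.20 and 2.41 ± 0.20). Arnt2, a dimerisation partner of the receptor, fell at both times (-0.77 ± 0.13 and -0.76 ± 0.13), and the glucocorticoid receptor Nr3c1 fell at 12 h (-0.79 ± 0.15, adjusted p = 0.00127). The dimmer probe sets of Arnt2 and Nr3c1 passed at neither time. The small Maf genes Mafk (0.52 ± 0.16 at 4 h) and Mafg (0.65 ± 0.17 at 12 h) and the chaperone gene Ptges3 (0.29 ± 0.11 at 12 h) were higher. Keap1, which holds Nrf2 in check, was lower at both times (-0.61 ± 0.16 and -0.47 ± 0.16), and Nfe2l2, the gene of Nrf2, was lower at 12 h (-0.61 ± 0.13).

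Of the list of aryl hydrocarbon receptor targets, 4 of 8 on the array were tested besides Cyp1b1. At 4 h 3 were higher and 0 lower, and at 12 h 3 were higher and 1 lower. The quinone reductase Nqo1, also a target of Nrf2, rose by 0.61 ± 0.12 at 4 h and 0.93 ± 0.12 at 12 h on the log2 scale (limma adjusted p = 0.00237 and 6.01e-05). The aldehyde dehydrogenase Aldh3a1 had 6995.6, 8550.9 and 13690.8 units in EGF arrays and 1310.6, 1108.5 and 1532.9 in control arrays at 12 h (2.82 ± 0.25, adjusted p = 1.54e-06), and 1.33 ± 0.25 at 4 h. The amino acid transporter Slc7a5 rose at both times (1.55 ± 0.25 and 1.57 ± 0.25). Tiparp, a repressor of the receptor, was the 1 gene lower at 12 h (-0.76 ± 0.13). Cyp1b1, with log2 fold changes of -0.09 and 0.41, stands beside these values, and the dim Cyp1a1, Cyp1a2 and Ahrr had no test.

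**Figure D4:**
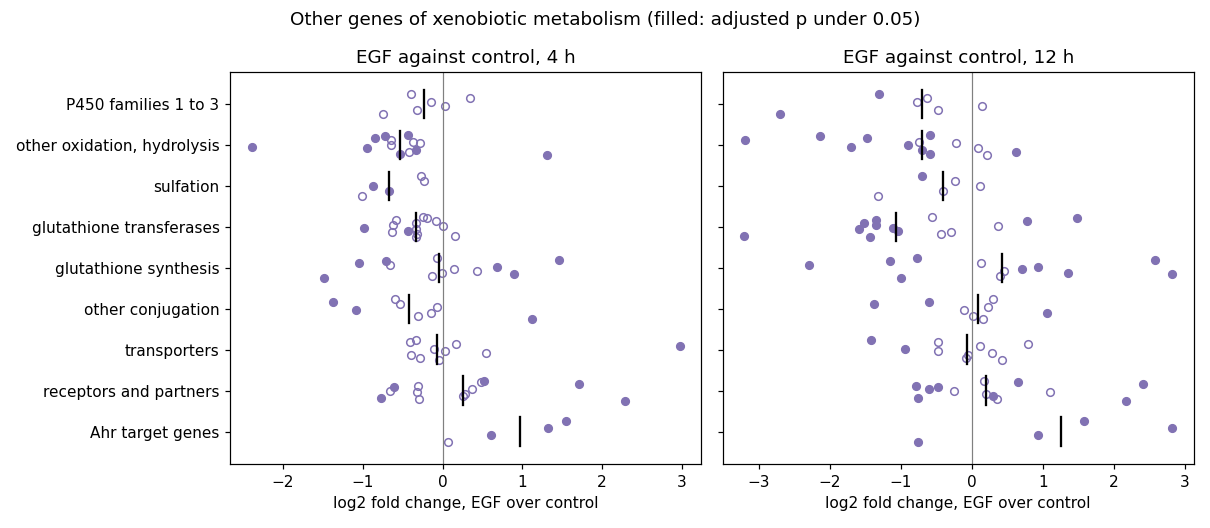
Log2 fold change of EGF over control for the 85 tested genes of the 9 lists at 4 h (left) and 12 h (right), 1 point a gene, with the median of each list (black line). Filled points passed an adjusted p under 0.05, and the list of other glutathione S-transferases has its median at -0.34 at 4 h and -1.08 at 12 h.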

How the data were processed

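RNA of 12 samples was measured on 1-colour Affymetrix arrays, with biotin as the label per the labels. The deposited values are linear intensities of 31099 probe sets. The authors computed them in MAS5, whose version the submitters' processing notes leave out. Trimmed means (2% at each end) were 1500.46 to 1500.56, so arrays were already scaled and were not rescaled. Median signals were 305.5 to 415.2, and the number of arrays limits the precision. Groups came from the sample titles, since all descriptions read as control.

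The 57 control probe sets and those with a mean signal under the 40th percentile (215) were left out, leaving 18625. The model had the 4 group means of log2(signal + 24.4), the offset being the 10th percentile of all signals. It was run on all 12 arrays together (limma 3.58.1, R 4.3.3) with an intensity trend, 8 residual degrees of freedom, two-sided tests and Benjamini-Hochberg adjustment over all tested probe sets at 0.05. All SE and adjusted p come from this fit, which was tested on simulated data. Probe sets were named from the platform annotation (20832 with 1 symbol, 436 with several, 9831 with none), and a gene's brightest probe set leads. Figures used matplotlib 3.10.9.

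The 7 enzymes and the lists were chosen with earlier results of these data known. The named pathway genes are up to 3 of each list and time with the smallest p among those past the threshold, and the 2 genes with the highest r for each enzyme. The brightest probe set of a gene stands for it. A set of arrays shares its time, a mean hybridisation control above or under 1000, and an actin ratio above or under 5.

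The EGF and control arrays of the same replicate number, after group means were removed, correlated at 0.121, 0.150 and 0.376 at 4 h and at 0.0826, -0.111 and -0.103 at 12 h. At 4 h the arrays numbered 1 and 2 also correlated across numbers at 0.138 and 0.142, and the labels do not say what a number marks. The main fit therefore used no pairing at either time. The replicate block, which joins arrays of equal number at both times, was run only as an alternative. Alternatives were other scalings, offsets, filters, no trend, 1 time alone, the replicate block, a block for sets of arrays, and leaving out arrays.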

Additional observations from a re-analysis of the deposited data

Results flagged for a closer look

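The EGF effect differed between 12 h and 4 h, by the interaction term of the limma fit at an adjusted p under 0.05, for 15 of the named pathway genes outside the 7 enzymes. This term has 1 test for each gene, while the EGF comparisons of the named pathway genes number 66, 1 for each gene and time. Of all tested genes 14.0% passed. The named genes were picked for a small p at 1 time or both, so their share cannot be compared with this percentage. The experiments also differ in their sets of arrays, a part that was not tested.

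As the log2 effect at 12 h minus that at 4 h, the difference was -2.86 for Slco2a1, -2.55 for Aox1, -1.96 for Cyp2c11, -1.43 for Ephx2, -1.19 for Gstz1, -1.10 for both Por and Gsta1, and -0.97 for Ugdh. All 12 h signals of Slco2a1 were under the 25th percentile of all signals. The dimmer probe sets of Slco2a1 (-1.99 ± 0.79) and Por (0.17 ± 0.71) did not pass for this difference. Slco2a1, Por and Ugdh passed as higher at 4 h and not at 12 h, and the others were lower at 12 h.

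The difference was 1.92 for Gss, 1.66 for Mgst2, 1.49 for Aldh3a1, 1.197 for Tpmt, 1.12 for Slc7a11 and 0.98 for both Papss2 and Nnmt. Gss, Aldh3a1 and Slc7a11 were higher than control at both times, by a larger log2 fold change at 12 h. For Slc7a11 the EGF signal itself was lower at 12 h (mean 1446) than at 4 h (2571), and the control signal was lower still (220 and 909). Papss2 and Nnmt passed as lower at 4 h and not at 12 h. The dimmer probe set of Papss2 passed for the difference too (2.10 ± 0.32).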

How the results depend on the processing

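With sets of arrays blocked in the fit, the called probe sets at 4 h numbered 8063 rather than 5186, and the pathway genes called 48 rather than 30, of which 32 rather than 18 were lower. No other alternative moved these counts, or those at 12 h and between the controls, by over 1.5 times, and leaving out arrays gave 23 to 40 pathway genes called at 4 h and 41 to 50 at 12 h. With the replicate block 30 were called at 4 h and 47 at 12 h, and 1 named gene changed its call, Papss1 at 12 h (adjusted p = 0.0402).

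The log2 fold changes of the 7 enzymes moved by over 1 residual SD in 9 of 322 alternative values and none of the called ones changed sign. The median log2 fold change of all probe sets at 4 h was -0.15, and -0.04 with each array centred on its median, under which Cyp1b1 at 4 h was 0.01. Without EGF replicate 1 of 4 h, Gstt1 at 4 h was 0.08. Of 1512 alternative values of the named pathway genes, 29 lost a call, 12 gained one and 10 changed sign, all 10 in comparisons that passed neither before nor after. At 4 h Slco1a4 (-0.11) was 0.0795 under quantile normalization and 0.196 without both arrays numbered 3, and it ranged from -0.392 to 0.0693 with 1 array left out, being above 0 without EGF or control replicate 3 (0.0168). At 12 h Slco2a1 (0.11) was -0.127 with sets blocked and -0.127 to 0.400 with 1 array left out, below 0 without EGF replicate 3 or control replicate 1 (-0.0373). With 1 array left out, Nnmt at 12 h ranged from -0.222 to 0.0917, the highest without control replicate 1. Papss2 ranged from -0.0451 to 0.344 and Ugdh from -0.00709 to 0.322, both lowest without EGF replicate 1. The cause was not tested. The effects between the controls could not be fitted with either block, and other probe sets of the 7 enzymes do not exist in the annotation. Detection calls were not used here, so for dim genes the signal limits what can be said.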
